A study of Mus musculus with 12 samples.

Results

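The 39 HOX genes were followed across 9 mouse mammary tumours and 3 libraries of normal mammary epithelium. Members were the gene symbols made of Hox, a cluster letter from a to d and a position from 1 to 13, which matched 39 of the 54658 genes counted. The tumours carried 1 mutant allele of the tumour suppressor p53 (genotype Trp53R245W/+), which the series describes as a somatic change, and are numbered 1, 4, 5, 14, 17, 20, 21, 24 and 27 as labelled. The epithelium libraries, numbered 1 to 3, came from epithelium enriched out of wild-type mammary glands. All 12 samples were labelled female and as F1 hybrids of the strains C57BL/6J X BALB/cJ. Age, the gland each sample came from, the way the allele was changed and whether each tumour came from a separate mouse were not stated in the labels, so p-values measure the spread between these samples. Genotype and tumour state changed together, and so did the library name prefix (R597 for tumours, R688 for epithelium), so their parts cannot be told apart.

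HOX genes encode homeodomain transcription factors that tell cells where along the body axis they lie. They stand in 4 clusters, in which genes with low numbers act towards the head and genes with high numbers act towards the tail, the limb ends and the genital tract, and adult cells, above all fibroblasts, keep a HOX pattern that reflects where in the body they arose. In the mouse mammary gland, Hoxc8 takes part in placing the embryonic buds, and Hoxa9, Hoxb9 and Hoxd9 together are needed for growth of the gland around pregnancy. HOX proteins bind DNA with PBX and MEIS cofactors, and Polycomb complexes keep HOX clusters off while Trithorax complexes keep them on.

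In the annotation used for positions and lengths (GENCODE M21, build GRCm38), the Hoxa cluster of 11 members lay at chr6:52155590-52260880 on the minus strand, the Hoxb cluster of 10 at chr11:96194316-96368256, the Hoxc cluster of 9 at chr15:102921103-103036852 and the Hoxd cluster of 9 at chr2:74668310-74765142, the last 3 on the plus strand. Libraries held 19695318 to 33600076 counts in genes. Levels are given as CPM, counts scaled to 1000000 counts in genes with TMM factors, and levels of different genes are compared only as CPM per kb of exonic length. A level given with ± is a mean and SD over 9 tumours or 3 epithelium libraries. A count of 3, taken as the upper limit behind a count of 0, equalled 0.0986 to 0.274 CPM, and intervals and this limit cover counting error only. Tumour 4 stood apart: 52% of its alignments were not unique, against 17.1 to 27.2% in the other tumours and 8.59 to 12% in epithelium, and its TMM factor was 0.557. Alignments outside genes made up 8.08 to 32.3% in tumours and 39.9 to 41.5% in epithelium, with no overlap of the groups.

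The summed HOX level in normal epithelium was low and nearly the same in its 3 libraries. For single members with a mean of at least 1 CPM there, the SD was 3.37 to 33.3% of the mean. The summed level of all 39 was 33.2, 20.2, 22, 15.7, 43.6, 50.1, 132, 16.4 and 53.9 CPM in tumours 1, 4, 5, 14, 17, 20, 21, 24 and 27, against 54.1, 51.3 and 53 CPM in epithelium libraries 1 to 3. Tumour 21 was far above epithelium, tumour 27 lay inside its range, and the other 7 were below it. A mean of at least 1 CPM was reached by 19 members in tumours and 20 in epithelium, 23 in either. Of all 39, 11 stayed under 1 CPM in every library. Among these, Hoxb8 peaked at 0.996 CPM in tumour 1, Hoxc11 at 0.952 in tumour 21, Hoxc13 at 0.435 in tumour 27, Hoxb13 at 0.296 in tumour 17, Hoxd3 at 0.258 in tumour 20 and Hoxd11 at 0.192 in tumour 24. Hoxa11, Hoxb1 and Hoxd12 had 4, 3 and 1 counts over all tumours and 0 in epithelium, Hoxd1 had 0 counts in tumours and 2 in epithelium, and Hoxc12 had none in any library. In all, 7 members had no count in epithelium.

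Per exonic length, Hoxd8 was the most abundant member in each of the 3 epithelium libraries, and the order differed from tumour to tumour. In mean level, Hoxd8 had 1.28 CPM per kb in tumours and 2.87 in epithelium, Hoxb4 0.83 and 1.48, and Hoxc6 0.886 and 1.26. A mean of at least 1 CPM per kb was reached by 2 members in tumours, Hoxd8 and Hoxa6, and by 6 in epithelium, Hoxd8, Hoxb4, Hoxc6, Hoxb6, Hoxb7 and Hoxa7. The Hoxa6 mean rests on tumour 21, at 6.21 CPM per kb, and its tumour median was 0.342. Without tumour 21, 1 member reached such a mean in tumours. Hoxd8 also led in tumours 5 and 27, whereas Hoxb4 led in tumour 1, Hoxb7 in tumours 4 and 14, Hoxa5 in tumour 17, Hoxa2 in tumour 20, Hoxa6 in tumour 21 and Hoxc6 in tumour 24. Members at positions 4 to 8, the trunk class, made up 66.4, 67.2 and 67.6% of the summed CPM per kb in the 3 epithelium libraries, those at positions 1 to 3 12, 14.2 and 13.3%, and those at positions 9 to 13 21.6, 18.6 and 19.1%. Among tumours, the share of positions 1 to 3 reached 41.2% in tumour 20, 30% in tumour 17 and 27.6% in tumour 27. The share of positions 9 to 13 reached 28.5% in tumour 21, 25.8% in tumour 27, 24.9% in tumour 5 and 23.2% in tumour 14. Levels of Hoxd3 and Hoxd4 per length are uncertain, since 2613 of 4191 and 1542 of 2948 of their exonic bases are shared with another gene on the same strand. The rank of Hoxd4 within its cluster is therefore uncertain too. With such bases left out of the length, 3 members in tumours and 7 in epithelium reached a mean of 1 CPM per kb.

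**Figure D1:**
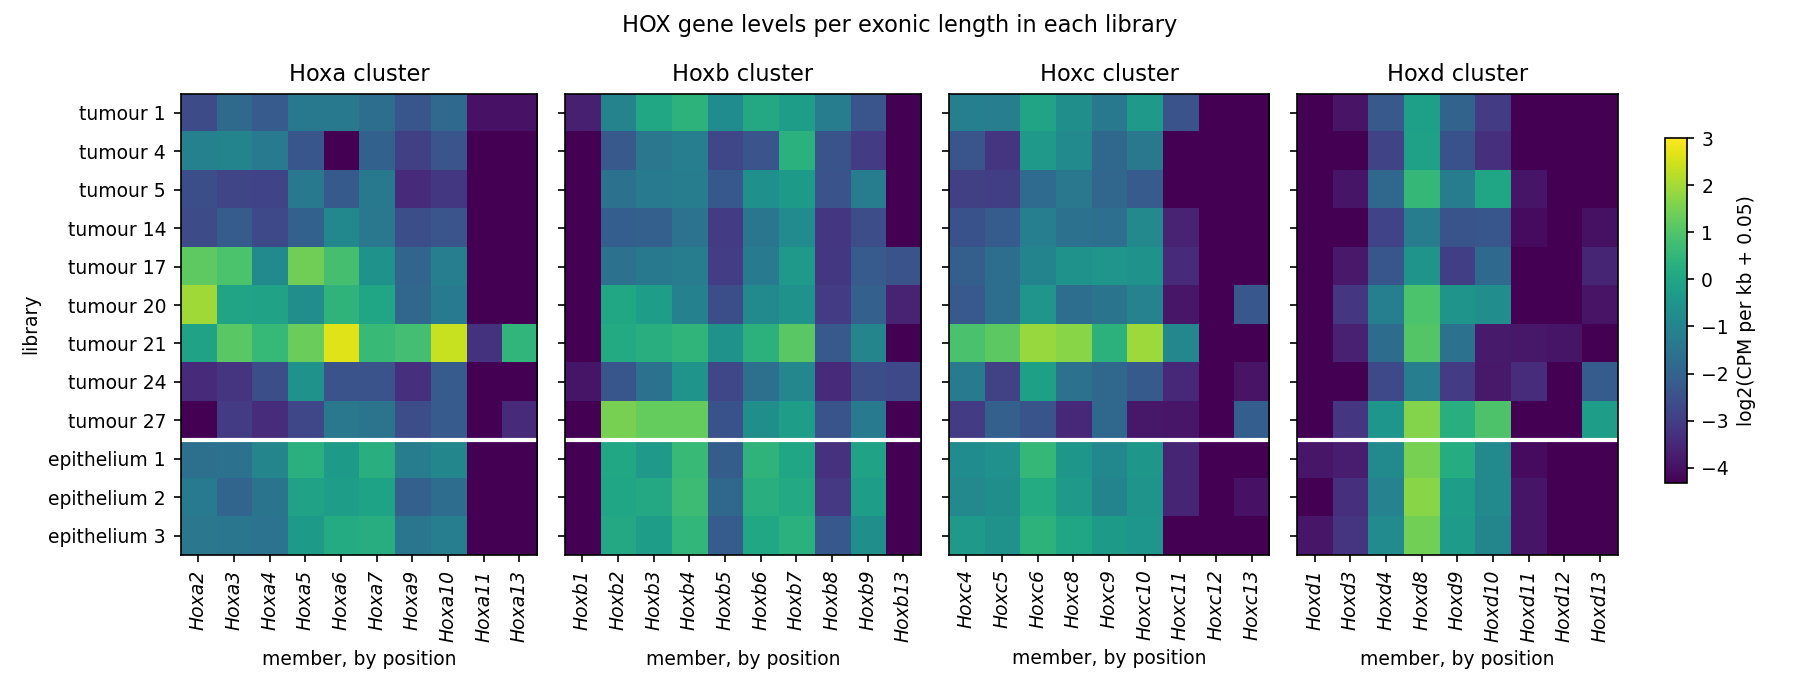
Level of HOX members in CPM per kb (colour, scale at the right), on a log2 scale with 0.05 added, with members in the order of their position along the columns of each cluster and libraries in rows, the 9 tumours above the 3 epithelium libraries. The epithelium rows look alike, tumour 21 is bright over the Hoxa and Hoxc clusters, and tumour 27 is bright over Hoxb2 to Hoxb4 and part of the Hoxd cluster.

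The first comparison asked which HOX genes differed between tumours and epithelium as groups. Of the 39 members, 27 passed the filter on low counts (edgeR's filterByExpr), and Hoxa11, Hoxa13, Hoxb1, Hoxb13, Hoxc11, Hoxc12, Hoxc13, Hoxd1, Hoxd3, Hoxd11, Hoxd12 and Hoxd13 did not. By edgeR's quasi-likelihood test with Benjamini-Hochberg adjustment over all 21456 genes tested, 0 of the 27 were higher in tumours and 1, Hoxb9, was lower. Over all genes tested, 8.89% were called higher, 11.4% lower and 20.3% either way. At an unadjusted p under 0.05 the same test gave 1 of 27 members, against 36% of all genes. DESeq2 called 0 members higher and 3 lower (Hoxb9, Hoxc4 and Hoxc5; background 17.6% higher, 15.7% lower), and limma-voom with a variance for each group called 0 higher and 11 lower (Hoxa7, Hoxb2, Hoxb4, Hoxb6, Hoxb9, Hoxc4, Hoxc5, Hoxc6, Hoxd4, Hoxd8 and Hoxd9; background 23.3% and 26.2%). At its defaults, DESeq2 replaces counts it flags as outliers in groups as large as the tumours. Its log2 fold changes for Hoxc4 and Hoxc5 were -1.52 and -1.54. By edgeR they were -0.65 and -0.55 with all libraries and -1.61 and -1.65 without tumour 21. The part of replacement in these calls was not tested. The median edgeR log2 fold change was -0.21 over the 27 members and 0.17 over all genes, with 17 members negative and 10 positive. In bulk samples, fewer cells that hold an RNA and less RNA per cell cannot be told apart.

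Hoxb9, a position 9 gene of the Hoxb cluster, was the only one of the 27 whose groups of libraries did not overlap. It had 0.182 CPM in the lowest tumour, 0.423 at the median and 1.16 in the highest, against 2.25, 2.08 and 1.49 CPM in epithelium libraries 1, 2 and 3. Every tumour lay below every epithelium library, as did 14.1% of all genes tested, and no member had all tumours above, against 10.2% of all genes. Hoxb9 averaged 0.57 ± 0.357 CPM in tumours and 1.94 ± 0.401 CPM in epithelium (edgeR, log2 fold change -1.75, SE 0.49, adjusted p = 0.0254, lower in 9 of 9 tumours). The call was lost without epithelium library 1, 2 or 3 (edgeR, adjusted p = 0.115, 0.0994 and 0.0629, log2 fold change -1.63, -1.70 and -1.91), where 1496 to 1542 of all genes were called lower, against 2438 with all 12 libraries. With the percent of alignments outside genes in the edgeR model, the log2 fold change was -0.11 (adjusted p = 0.964) and 0 members were lower, against 2.13% of all genes.

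Most members, Hoxb9 among them, were below epithelium in most tumours. The tumour median lay below all 3 epithelium libraries for 24 of 27 members, against 43.9% of all genes tested, while the highest tumour lay above all 3 for 24 of 27, against 77.9% of all genes. The median coefficient of variation (SD over mean) of the 27 members was 1.15 over tumours and 0.161 over epithelium. The 6674 tested genes in the members' range of mean tumour level had medians of 0.67 over tumours and 0.231 over epithelium. A coefficient above 1 over tumours was found for 15 of 27 members, 55.6%, and for 25.8% of those like-level genes. Standard errors of the members' log2 fold changes ran between 0.45 and 1.42.

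**Figure D2:**
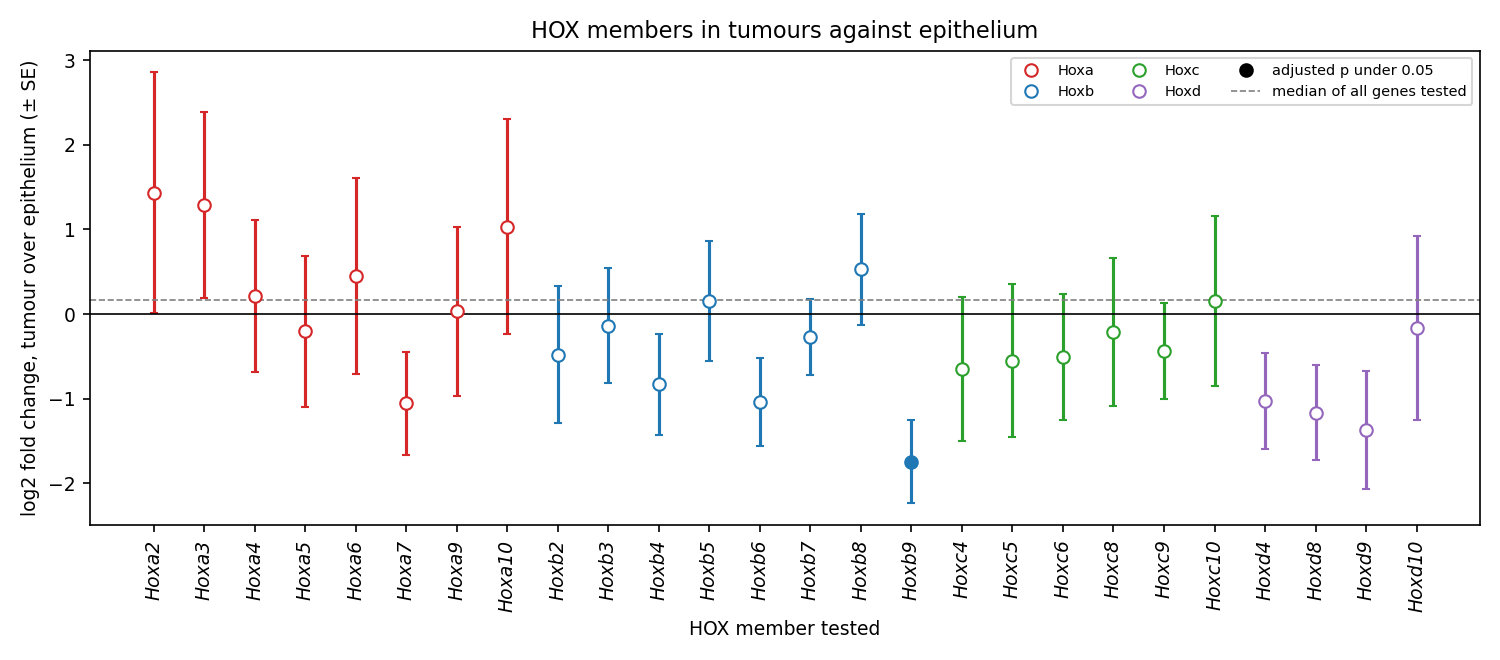
Log2 fold change of tested HOX members, tumour over epithelium, with its standard error from edgeR, members ordered by cluster and position along the x axis. Hoxb9 at -1.75 is the only plotted member past the adjusted p threshold of 0.05, the widest error bar, an SE of 1.42, is that of Hoxa2, and the dashed line is the median of all genes tested.

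In the Hoxa cluster, 0 of 9 tested members passed the test. The 3 most abundant per length in epithelium were Hoxa5, Hoxa6 and Hoxa7, trunk genes of which HOXA5 is known in human breast cells as an activator of the p53 gene. Their mean levels were 0.815, 1.19 and 0.511 CPM per kb in tumours, where Hoxa2 at 0.857 exceeded Hoxa5 and Hoxa7, against 0.941, 0.876 and 1.07 in epithelium. Hoxa5 had 0.181 CPM in the lowest tumour, 0.631 at the median and 4.87 in the highest, against 2.25, 1.67 and 1.39 CPM in epithelium libraries 1, 2 and 3. Tumours 17 and 21 were above epithelium and the other 7 below it. Hoxa6 had 0 CPM in the lowest tumour, 0.299 at the median and 5.42 in the highest, against 0.657, 0.695 and 0.946 CPM in epithelium libraries 1, 2 and 3. Its highest value, in tumour 21, was 5.42 CPM and the next, in tumour 17, 1.52 CPM, and 6 tumours lay below epithelium. Hoxa7 had 0.384 CPM in the lowest tumour, 0.953 at the median and 4.26 in the highest, against 3.32, 2.6 and 3.28 CPM in epithelium libraries 1, 2 and 3. Only tumour 21 was above epithelium, and 7 tumours were below it (edgeR, log2 fold change -1.05, SE 0.61, adjusted p = 0.228).

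The head-end genes Hoxa2 and Hoxa3, which pattern the second branchial arch and the throat organs, had higher means in tumours with wide spread. Hoxa2 averaged 1.52 ± 2.33 CPM in tumours and 0.561 ± 0.0713 CPM in epithelium, with 4 tumours above epithelium and 5 below. Hoxa3 averaged 3.97 ± 4.79 CPM in tumours and 1.62 ± 0.309 CPM in epithelium, with tumour 21 at 12.8 CPM and tumour 17 at 11.1. Hoxa4 averaged 0.656 ± 0.755 CPM in tumours and 0.562 ± 0.143 CPM in epithelium. At the tail end, Hoxa9 averaged 1.67 ± 2.98 CPM in tumours and 1.64 ± 0.544 CPM in epithelium and Hoxa10, which patterns the uterus, 2.48 ± 5.43 CPM in tumours and 1.21 ± 0.35 CPM in epithelium. Both means in tumours rest on tumour 21, without which edgeR's log2 fold change was -1.24 for Hoxa9 (adjusted p = 0.0896) and -0.83 for Hoxa10 (adjusted p = 0.238).

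In the Hoxb cluster, Hoxb9 was the 1 of 8 tested members that passed. Its most abundant members per length in epithelium were Hoxb4, known in mice for its part in blood stem cells, Hoxb6 and Hoxb7. Their mean levels were 0.83, 0.556 and 0.893 CPM per kb in tumours, where Hoxb3 at 0.757 and Hoxb2 at 0.706 exceeded Hoxb6, against 1.48, 1.15 and 1.07 in epithelium. Hoxb4 had 0.756 CPM in the lowest tumour, 1.07 at the median and 6.05 in the highest, against 3.77, 4.06 and 3.58 CPM in epithelium libraries 1, 2 and 3. Tumour 27 alone lay above epithelium and the other 8 lay below it (edgeR, log2 fold change -0.83, SE 0.60, adjusted p = 0.335). Hoxb6 had 0.274 CPM in the lowest tumour, 0.993 at the median and 2.44 in the highest, against 2.56, 2.29 and 1.93 CPM in epithelium libraries 1, 2 and 3. No tumour was above epithelium and 7 were below it. Hoxb7 had 0.73 CPM in the lowest tumour, 1.16 at the median and 3.27 in the highest, against 1.45, 1.63 and 1.89 CPM in epithelium libraries 1, 2 and 3. Tumours 4 and 21 were above epithelium and 7 were below. Hoxb2 and Hoxb3, hindbrain genes, averaged 2.46 ± 2.99 CPM in tumours and 3.45 ± 0.116 CPM in epithelium for Hoxb2 and 3.22 ± 2.97 CPM in tumours and 3.55 ± 0.673 CPM in epithelium for Hoxb3, and tumours 27 and 21 alone exceeded epithelium in both. Hoxb5 averaged 0.584 ± 0.58 CPM in tumours and 0.527 ± 0.0848 CPM in epithelium, and Hoxb8 0.347 ± 0.267 CPM in tumours and 0.239 ± 0.145 CPM in epithelium.

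In the Hoxc cluster, which lacks positions 1 to 3, 0 of 6 tested members passed and tumour 21 was the highest in every one of them. Hoxc6 had 0.326 CPM in the lowest tumour, 1.58 at the median and 8.7 in the highest, against 3.39, 2.6 and 3.11 CPM in epithelium libraries 1, 2 and 3. Hoxc8, the bud-placing gene named above, had 0.109 CPM in the lowest tumour, 0.945 at the median and 8.98 in the highest, against 1.94, 2.05 and 2.67 CPM in epithelium libraries 1, 2 and 3. Hoxc10, a gene of the lumbar and hindlimb region, had 0.0362 CPM in the lowest tumour, 0.809 at the median and 7.12 in the highest, against 1.31, 1.22 and 1.28 CPM in epithelium libraries 1, 2 and 3. In Hoxc6 and Hoxc8, tumour 21 was above epithelium and the other 8 below, and in Hoxc10 tumours 21 and 1 were above and 7 below. The other tested members averaged 0.95 ± 1.43 CPM in tumours and 1.5 ± 0.287 CPM in epithelium for Hoxc4, 1.25 ± 2.06 CPM in tumours and 1.84 ± 0.0636 CPM in epithelium for Hoxc5 and 1.0 ± 0.831 CPM in tumours and 1.36 ± 0.406 CPM in epithelium for Hoxc9. Without tumour 21, edgeR called Hoxc4 (log2 fold change -1.61, adjusted p = 0.0375) and Hoxc5 (-1.65, adjusted p = 0.0331) lower beside Hoxb9, 3 members in all, against 13% of all genes.

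In the Hoxd cluster, 0 of 4 tested members passed and tumour 27 was the highest in all 4. Hoxd8 had 1.02 CPM in the lowest tumour, 2.37 at the median and 8.48 in the highest, against 7.58, 8.68 and 7.36 CPM in epithelium libraries 1, 2 and 3. Tumour 27 lay within the range of epithelium and the other 8 lay below it (edgeR, log2 fold change -1.17, SE 0.56, adjusted p = 0.152). Hoxd9 had 0.154 CPM in the lowest tumour, 0.432 at the median and 2.46 in the highest, against 2.39, 1.74 and 1.62 CPM in epithelium libraries 1, 2 and 3. Tumour 27 was just above epithelium and 8 tumours were below (edgeR, log2 fold change -1.37, SE 0.70, adjusted p = 0.177). Hoxd10, which in humans is a target of the microRNA miR-10b in breast cancer cells, had 0.0384 CPM in the lowest tumour, 0.263 at the median and 3.44 in the highest, against 0.934, 0.938 and 0.844 CPM in epithelium libraries 1, 2 and 3. Tumours 27, 5 and 20 were above epithelium and 6 were below it. Hoxd4 averaged 0.701 ± 0.566 CPM in tumours and 1.44 ± 0.167 CPM in epithelium. Without tumour 27, edgeR called Hoxd9 lower beside Hoxb9 (log2 fold change -1.87, adjusted p = 0.0384), 2 members, against 12% of all genes.

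Summed over a cluster, the tumours spread much more widely than epithelium. The Hoxa sum was 3.15 CPM in the lowest tumour, 6.14 at the median and 63.8 in the highest, against 13.3, 9.79 and 12.1 CPM in epithelium. Tumours 21, 17 and 20 were above epithelium and 6 below. The Hoxb sum was 4.27, 7.59 and 29.9 CPM in the lowest, median and highest tumour, against 17.1, 18.6 and 16.7 CPM in epithelium, with tumours 27 and 21 above and 7 below. The Hoxc sum was 2.25, 4.95 and 40.1 CPM in tumours, against 11.1, 10.1 and 12.6 CPM in epithelium, with tumour 21 alone above and 8 below. The Hoxd sum was 1.91, 3.39 and 18.6 CPM in tumours, against 12.6, 12.9 and 11.7 CPM in epithelium, with tumour 27 alone above and 8 below. The log2 ratio of group means, given with no test, was 0.46 for Hoxa, -0.56 for Hoxb, -0.34 for Hoxc and -1.01 for Hoxd, and without tumour 21 that of Hoxa was -0.21 and that of Hoxc -1.17. Without tumour 27 that of Hoxb was -0.86 and that of Hoxd -1.43.

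**Figure D3:**
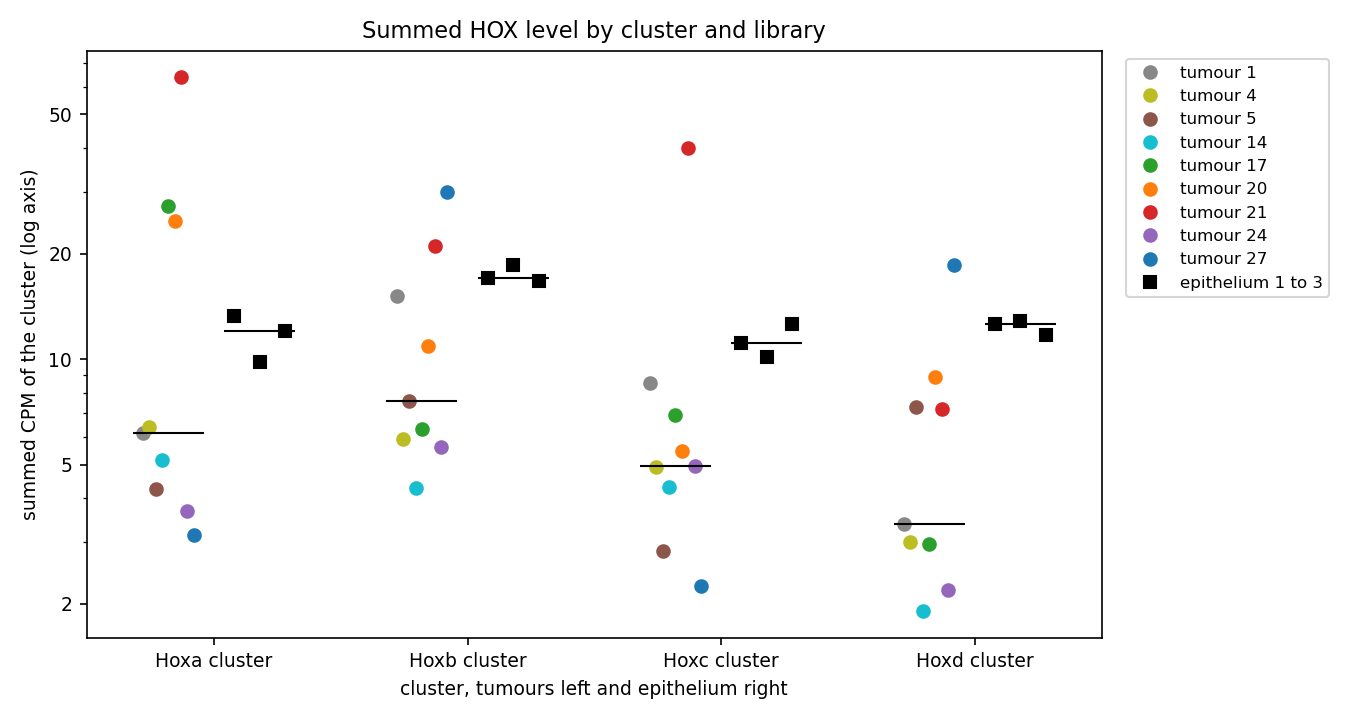
Summed CPM of each HOX cluster (log y axis) in every library, with tumours on the left and epithelium on the right of each cluster, 1 colour for each tumour and a line at the median of each group. Tumour 21 is the highest for Hoxa at 63.8 CPM and for Hoxc at 40.1 CPM, and tumour 27 is the lowest for both and the highest for Hoxb and Hoxd.

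Which members lay above epithelium differed from tumour to tumour. Of the 28 members that reached 1 CPM in any tumour, tumour 21 was the highest in 17, tumour 27 in 8, tumour 20 in 2 and tumour 17 in 1, and tumours 1, 4, 5, 14 and 24 in none. The tumours singled out here were chosen after their values were seen.

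Tumour 21 had 20 of 27 members above all 3 epithelium libraries and 6 below them, where all genes tested had 42.6% above and 41.4% below. All 9 tested Hoxa and all 6 tested Hoxc members were above epithelium there, as were 5 of 8 Hoxb members, while all 4 Hoxd members were below. Its high Hoxa values ran to the tail end of the cluster: Hoxa10 had 16.9 CPM (exact 95% interval 15.3 to 18.7), Hoxa9 9.56 CPM and Hoxa13, a gene of the limb ends and genital tract, 3.4 CPM from 82 counts (interval 2.7 to 4.21). Hoxa10 was at most 1.31 CPM in the other 8 tumours and at most 1.52 CPM in epithelium. Hoxa13 had at most 3 counts in any other tumour and 0 in epithelium. Hoxa11, between Hoxa10 and Hoxa13, had 0.124 CPM in tumour 21, from 3 counts. Positions 9 to 13 made up 34.4% of the summed Hoxa CPM per kb in tumour 21, against 16.2, 10.6 and 14.7% in epithelium. This share was 27.8% in tumour 27, 17.8% in tumour 1 and at most 13.4% in the other tumours. The same tumour had the highest sum of 12 fibroblast markers, 32483 CPM, against at most 5967 CPM in the other tumours and 4053 to 6144 CPM in epithelium, and the part of fibroblasts in its HOX values was not tested.

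Tumour 27 showed another pattern, with 6 of 27 members above all 3 epithelium libraries and 19 below them, where all genes tested had 45.3% above and 41.1% below. All 9 Hoxa and all 6 Hoxc members were below epithelium, and Hoxa2 had 0 counts, which allows up to 0.109 CPM. Above epithelium were Hoxb2 at 9.75 CPM, Hoxb3 at 10.1, Hoxb4 at 6.05, Hoxd4 at 1.99, Hoxd9 at 2.46 and Hoxd10 at 3.44. In the Hoxb cluster the high members were thus those at positions 2 to 4, and the members at positions 5 to 9 had 0.362, 1.12, 1.23, 0.362 and 0.943 CPM in order. Hoxd13, the gene at the tail end of its cluster and active in digits, had 1.96 CPM from 54 counts (exact 95% interval 1.47 to 2.55), 0.422 CPM from 11 counts in tumour 24, at most 2 counts in any other tumour and 0 in epithelium. The Hoxd cluster held 34.5% and the Hoxa cluster 5.85% of the HOX CPM of tumour 27, against 23.3, 25.1 and 22.1% for Hoxd and 24.6, 19.1 and 22.7% for Hoxa in epithelium. Tumour 5 had nearly the same Hoxd share, 33.1%. Among tumours, tumour 27 had the lowest fibroblast marker sum, 1393 CPM. Its luminal (6852 CPM), basal (5008 CPM) and endothelial (791 CPM) sums were the highest, and the part of these cells was not tested.

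Tumours 17 and 20 were above epithelium in Hoxa2 and Hoxa3. So were tumour 4 (0.729 and 2.64 CPM) and tumour 21 (1.57 and 12.8 CPM). In tumour 17, Hoxa2 had 3.98 CPM, Hoxa3 11.1 and Hoxa5 4.87, and in tumour 20, Hoxa2 had 6.73, Hoxa3 5.48 and Hoxa5 1.07. Hoxa5 was thus above epithelium in tumour 17 and below it in tumour 20. Positions 1 to 3 made up 42.3% of the summed Hoxa CPM per kb in tumour 17 and 60.4% in tumour 20, and positions 4 to 8 51.9% and 34.4%. Positions 1 to 3 made up 15.4, 19.6 and 17.6% in epithelium. Among the other tumours, this share was 56.6% in tumour 4, 41.2% in tumour 5, 33.5% in tumour 1 and 33.4% in tumour 14. Tumours 24, 21 and 27 had 23.6, 17.6 and 6.15%. Epithelium had at most 0.625, 1.89 and 2.25 CPM of Hoxa2, Hoxa3 and Hoxa5. Tumour 17 had 6 of 27 members above all 3 epithelium libraries and 17 below them, where all genes tested had 43.3% above and 44.8% below. In tumour 20, 6 of 27 were above (41.4% of all genes) and 15 below (45.8%). The Hoxa cluster held 62.8% of the HOX CPM in tumour 17 and 49.6% in tumour 20. It held 48.3% in tumour 21 and at most 33% in the other tumours. Among tumours, tumour 17 had the highest summed levels of cartilage and bone markers (638 CPM) and of nerve and glia markers (419 CPM), and tumour 20 the lowest of luminal markers (1206 CPM), and the part of these cells was not tested.

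The other 5 tumours lay below epithelium in most of the tested members, but in tumour 1 no more than 4 of the 8 Hoxb members were below, and 2 were above. Of the 27 tested members, those below all 3 epithelium libraries numbered 26 in tumour 24 (46.5% of all genes), 25 in tumour 14 (44.4% of all genes), 24 in tumour 5 (43.6% of all genes), 21 in tumour 4 (51.7% of all genes) and 20 in tumour 1 (46.8% of all genes). Those above numbered 1 in tumour 24 (42.9%), 1 in tumour 14 (43.2%), 2 in tumour 5 (43.8%), 4 in tumour 4 (38.3%) and 4 in tumour 1 (41.7%).

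**Figure D4:**
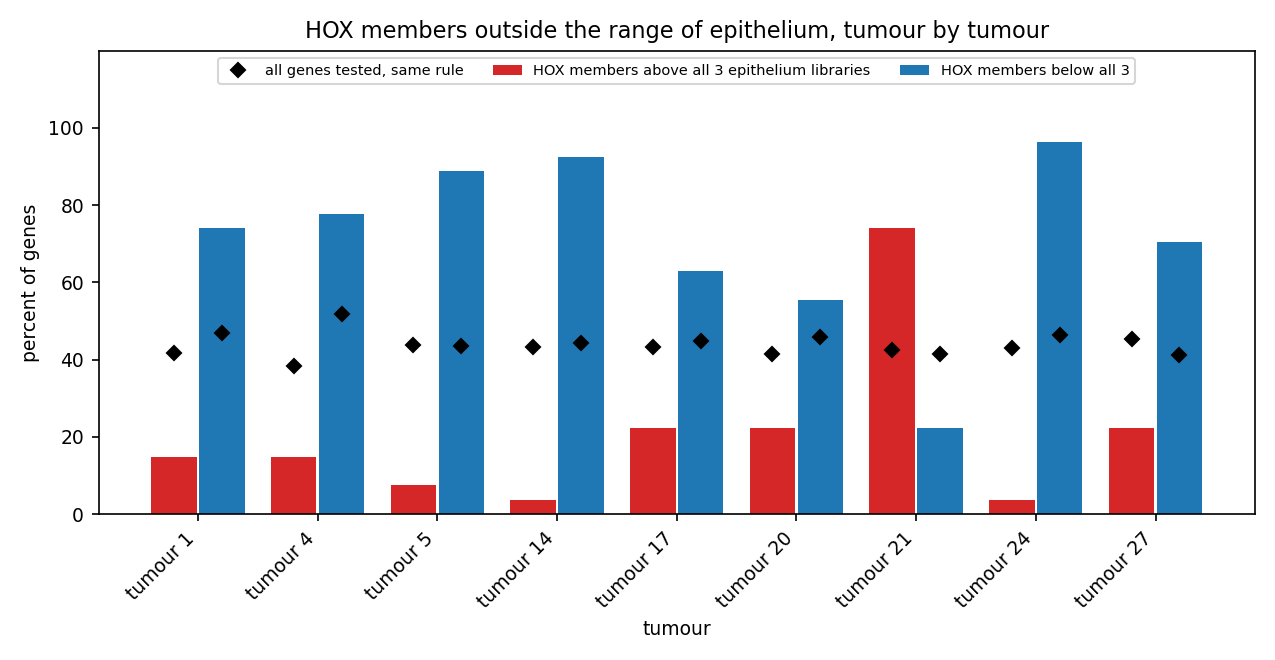
Percent of the 27 tested HOX members that lay above or below all 3 epithelium libraries in each tumour (bars), with the same percent over all 21456 genes tested as diamonds. Tumour 21 has 20 members above, and tumour 24 has 26 members below.

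The promoters of 4 members are shown because these members mark the contrasts above: Hoxa13 and Hoxd13 had counts mainly in 1 tumour each, Hoxd8 led in epithelium, and Hoxa2 was at 0 in tumour 27 and high in tumour 20. The sequences are the 250 bases before the gene's start in RefSeq (GRCm38.p6), 5′ to 3′ on the gene's strand, with CG pairs in capitals. Hoxa13 is at chr6:52260881-52261130 and Hoxa2 at chr6:52164832-52165081 on the minus strand, and Hoxd13 at chr2:74667975-74668224 and Hoxd8 at chr2:74704365-74704614 on the plus strand.
Hoxa13: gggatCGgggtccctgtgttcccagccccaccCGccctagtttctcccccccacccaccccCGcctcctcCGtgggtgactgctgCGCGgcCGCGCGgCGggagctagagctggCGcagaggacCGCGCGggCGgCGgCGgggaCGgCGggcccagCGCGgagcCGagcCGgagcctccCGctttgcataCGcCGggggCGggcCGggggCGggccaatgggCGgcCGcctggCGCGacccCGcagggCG
Hoxd13: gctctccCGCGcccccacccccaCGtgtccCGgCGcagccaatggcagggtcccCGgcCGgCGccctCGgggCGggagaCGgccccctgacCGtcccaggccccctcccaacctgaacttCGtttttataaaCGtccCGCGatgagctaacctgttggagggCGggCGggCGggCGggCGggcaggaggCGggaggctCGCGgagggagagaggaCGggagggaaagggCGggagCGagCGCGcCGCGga
Hoxd8: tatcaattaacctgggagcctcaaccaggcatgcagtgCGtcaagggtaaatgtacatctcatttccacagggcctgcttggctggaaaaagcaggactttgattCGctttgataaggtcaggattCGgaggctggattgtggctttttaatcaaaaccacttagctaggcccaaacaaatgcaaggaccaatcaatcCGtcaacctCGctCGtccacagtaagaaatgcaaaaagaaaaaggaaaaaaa
Hoxa2: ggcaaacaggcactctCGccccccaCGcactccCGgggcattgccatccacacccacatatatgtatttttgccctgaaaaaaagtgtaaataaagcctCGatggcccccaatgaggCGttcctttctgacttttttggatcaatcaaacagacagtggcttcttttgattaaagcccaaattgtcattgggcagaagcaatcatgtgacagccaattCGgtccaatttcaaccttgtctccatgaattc

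The Hoxa13 and Hoxd13 windows hold 35 and 31 CG pairs, against 6 and 6 for Hoxd8 and Hoxa2. Other members went the other way. Hoxa5 and Hoxa6, both counted in epithelium, hold 28 and 24 pairs. Hoxb1 and Hoxd12, with 0 counts in epithelium, hold 7 and 10. RefSeq promoters were matched for 22 of 39 members, with 24 starts. Their median was 12.5 CG pairs, against 6 over all 32851 promoters of the same length, and 15 or more were found in 9 of 24, against 27.3% of all. TGATNNAT, a joint HOX and PBX motif searched on both strands, was in the windows of Hoxa2, Hoxb1, Hoxb8 and Hoxd11, 4 of 24 starts, against 7.68% of all promoters. These are descriptions of the letters, and methylation or binding was not measured.

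Of 19 listed non-coding RNA genes in the clusters, 16 were in the files and 5 passed the filter, with 0 called higher and 0 lower by edgeR, against 8.89% and 11.4% of all genes (median log2 fold change 0.29). At an unadjusted p under 0.05, 1 of the 5 passed, against 36% of all genes. Hotairm1, a non-coding RNA of the Hoxa cluster, had 0.109 CPM in the lowest tumour, 0.98 at the median and 3.37 in the highest, against 0.242, 0.278 and 0.135 CPM in epithelium (edgeR, log2 fold change 2.42, SE 0.97, adjusted p = 0.0921). The highest was tumour 4. Hoxb3os, antisense to Hoxb2 and Hoxb3, had 0.14 CPM in the lowest tumour, 0.638 at the median and 8.08 in the highest, against 3.11, 3.51 and 3.48 CPM in epithelium (edgeR, log2 fold change -1.18, SE 0.97, adjusted p = 0.398). The highest was tumour 27, the tumour with the highest Hoxb2 and Hoxb3, and the other 8 lay below epithelium. Without tumour 27, edgeR called Hotairm1 higher (log2 fold change 2.58, adjusted p = 0.0487) and Hoxb3os lower (-2.37, adjusted p = 0.0168). With no library left out, limma-voom and DESeq2 made the same calls. DESeq2, which gave -2.19 for Hoxb3os, replaces counts it flags as outliers, and the part of that replacement was not tested. Named after their values were seen, Hottip beside Hoxa13 had 8 of its 9 tumour counts in tumour 21 and 2 counts in epithelium, and Evx1, the coding neighbour past Hoxa13, had 20 of its 25 tumour counts there and 1 in epithelium.

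Among 16 listed genes that flank the clusters, 10 were tested, of which 3 were higher (Cbx5, Mtx2 and Atp5g3) and 1 lower (Skap1), against 8.89% and 11.4% of all genes, with a median log2 fold change of 0.61. Skap1, an adaptor of T cell signalling beside the Hoxb cluster, averaged 1.59 ± 1.53 CPM in tumours and 64.8 ± 6.62 CPM in epithelium (edgeR, log2 fold change -5.36, SE 0.71, adjusted p = 0.000255). Cbx5, a heterochromatin protein gene beside Hoxc, averaged 256 ± 138 CPM in tumours and 103 ± 5.17 CPM in epithelium (edgeR, adjusted p = 0.0414), and Mtx2, a mitochondrial import gene beside Hoxd, 39 ± 13.2 CPM in tumours and 18 ± 1.82 CPM in epithelium (edgeR, adjusted p = 0.0375). Atp5g3, a subunit of the mitochondrial ATP synthase, averaged 83.3 ± 21.1 CPM in tumours and 40.9 ± 2.51 CPM in epithelium (edgeR, adjusted p = 0.0225). Without epithelium library 1, 2 or 3, edgeR did not call any of the 3 higher genes (adjusted p of 0.134, 0.148 and 0.148 for Cbx5, 0.116, 0.126 and 0.158 for Mtx2, 0.0841, 0.101 and 0.107 for Atp5g3). Cbx5 also lost its call without tumour 1, 5 or 20 (adjusted p = 0.0505, 0.0566 and 0.051), and Mtx2 without tumour 5, 17 or 24 (0.0554, 0.0552 and 0.0532). With the percent of alignments outside genes in the edgeR model, these 3 calls were also lost, at a log2 fold change of 1.88 for Cbx5 (adjusted p = 0.189), 0.09 for Mtx2 (adjusted p = 0.931) and 0.47 for Atp5g3 (adjusted p = 0.584). Skap1 kept its call. Cbx5 and Mtx2 were also not called without a filter (adjusted p = 0.0583 and 0.0602) or with at least 10 counts in 9 libraries (0.0507 and 0.0521), and Mtx2 not under upper quartile scaling (0.0514).

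As a list, the cofactors that bind DNA with HOX proteins had counts in both groups, and 1 of the 12 was at 0 in some tumour. Of 12 PBX, MEIS, PKNOX and related genes, all were tested, 1 was higher and 0 were lower, against 8.89% and 11.4% of all genes, with a median log2 fold change of -0.12, and the summed level was 368 to 716 CPM in tumours and 375 to 433 CPM in epithelium. The edgeR count of higher genes was 0 without epithelium library 1, 2 or 3 and without tumour 5, 17, 21, 24 or 27.

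Among 23 regulators of HOX chromatin, all tested, 4 were higher (Ezh2, Cbx2, Cbx8 and Wdr5) and 3 lower (Jarid2, Cbx7 and Kdm6b), against 8.89% and 11.4% of all genes, with a median log2 fold change of -0.19. Ezh2, the Polycomb methyltransferase of histone H3, had 41.2 CPM in the lowest tumour, 54 at the median and 112 in the highest, against 27.9, 31.4 and 30.9 CPM in epithelium (edgeR, log2 fold change 1.01, SE 0.30, adjusted p = 0.0301). The 2 Polycomb readers Cbx2 and Cbx7 moved in opposite directions. Cbx2 had 5.83 CPM in the lowest tumour, 15.9 at the median and 30.5 in the highest, against 4.77, 5.17 and 4.8 CPM in epithelium (edgeR, log2 fold change 1.85, SE 0.47, adjusted p = 0.0161). Cbx7 had 8.04 CPM in the lowest tumour, 27.4 at the median and 39.2 in the highest, against 103, 69 and 90.8 CPM in epithelium (edgeR, log2 fold change -1.73, SE 0.37, adjusted p = 0.0059). Jarid2, which brings the Polycomb methyltransferase complex to DNA, had 19.2 CPM in the lowest tumour, 37.8 at the median and 48.4 in the highest, against 84.2, 85.7 and 95.1 CPM in epithelium (edgeR, log2 fold change -1.32, SE 0.25, adjusted p = 0.00277). Cbx8, a further reader, averaged 16.8 ± 6.98 CPM in tumours and 7.0 ± 1.36 CPM in epithelium (edgeR, adjusted p = 0.0442), Wdr5, a core subunit of the Trithorax methyltransferases, 66.1 ± 17.6 CPM in tumours and 36.7 ± 1.91 CPM in epithelium (edgeR, adjusted p = 0.0425), and Kdm6b, a demethylase that removes the Polycomb mark, 24.8 ± 12 CPM in tumours and 53.1 ± 14.5 CPM in epithelium (edgeR, adjusted p = 0.0431). Without epithelium library 1, 2 or 3, edgeR called Cbx7 and Jarid2 alone. The adjusted p was then 0.132, 0.104 and 0.111 for Ezh2, 0.0803, 0.0704 and 0.0794 for Cbx2, 0.166, 0.103 and 0.178 for Cbx8, 0.164, 0.13 and 0.155 for Wdr5 and 0.0854, 0.221 and 0.113 for Kdm6b. Leaving out 1 tumour ended the edgeR call of Cbx8 for tumours 5, 14, 24 and 27 (adjusted p = 0.0645, 0.0611, 0.052 and 0.0541), of Wdr5 for tumours 5, 17, 20 and 24 (0.061, 0.0542, 0.0559 and 0.0597) and of Kdm6b for tumours 5, 14, 17, 20, 21, 24 and 27 (0.05 to 0.0669). With the percent of alignments outside genes in the model, Cbx2 alone of the 7 was called. The log2 fold change was then -0.61 for Jarid2 (adjusted p = 0.407), -1.31 for Cbx7 (adjusted p = 0.25), 0.17 for Ezh2 (adjusted p = 0.81), 0.45 for Cbx8 (adjusted p = 0.695), 0.97 for Wdr5 (adjusted p = 0.254) and -0.49 for Kdm6b (adjusted p = 0.7). Ezh2, Cbx8 and Wdr5 were also not called under upper quartile scaling (adjusted p = 0.053, 0.0626 and 0.0585), these and Kdm6b without a filter (0.0516, 0.0717, 0.0846 and 0.0625), and Cbx8 and Wdr5 with at least 10 counts in 9 libraries (0.0602 and 0.0584).

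**Figure D5:**
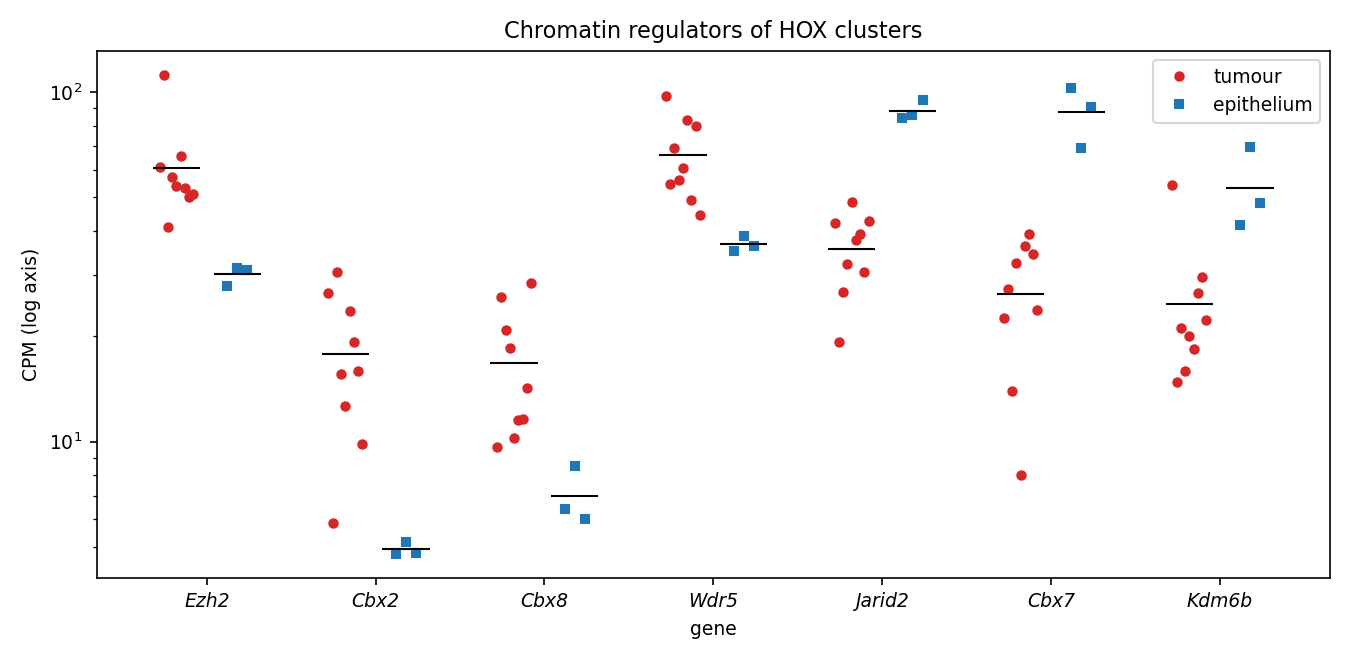
CPM (log y axis) of the 7 called chromatin regulators in each library, tumours left and epithelium right of each gene, with the mean as a line. Ezh2, Cbx2, Cbx8 and Wdr5 have higher means in tumours, and Jarid2, Cbx7 and Kdm6b in epithelium.

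Markers of the cells in the samples also differed between the groups, and their part in the group comparison of HOX genes was not tested. The counts called below are by edgeR, against 8.89% higher and 11.4% lower over all genes tested. The epithelium libraries held the luminal keratin Krt8 (868 CPM in tumours and 611 CPM in epithelium) and the basal keratin Krt5 (133 CPM in tumours and 54.3 CPM in epithelium), as their label says, but also lymphocyte markers. All 10 T and NK cell markers and all 7 B cell markers were lower in tumours, with summed levels of 6.31 to 50.4 CPM in tumours and 658 to 716 CPM in epithelium for T and NK cells and 4.42 to 77 CPM in tumours and 737 to 1037 CPM in epithelium for B cells. Cd3d of T cells averaged 0.618 CPM in tumours and 28.8 CPM in epithelium, and of the 17 markers 1 was at 0 in some tumour and none in all tumours. Endothelial markers were lower in 4 of 8 (204 to 791 CPM in tumours and 914 to 1153 CPM in epithelium, with Pecam1 averaging 88 CPM in tumours and 378 CPM in epithelium), and adipocyte markers in 2 of 8 (18.5 to 182 CPM in tumours and 346 to 542 CPM in epithelium, with Adipoq averaging 3.85 CPM in tumours and 3.69 CPM in epithelium). None of 12 fibroblast markers was called (1393 to 32483 CPM in tumours and 4053 to 6144 CPM in epithelium, with Pdgfra averaging 68.7 CPM in tumours and 230.1 CPM in epithelium). Of 14 luminal markers, 2 were higher and 3 lower (1206 to 6852 CPM in tumours and 3112 to 5134 CPM in epithelium). Of 11 basal markers 0 were called (248 to 5008 CPM in tumours and 1577 to 2137 CPM in epithelium). Unlike the Krt5 mean, the basal list had a negative median log2 fold change, -0.71. Its summed level had a tumour median of 487 CPM, and only tumours 27 and 20 (2280 CPM) were above epithelium. Of 9 myeloid markers 0 were called (370.1 to 2225 CPM in tumours and 741 to 1025 CPM in epithelium, with Csf1r averaging 192 CPM in tumours and 133 CPM in epithelium), of 7 muscle markers 1, Des, was lower (summed level 4.49 to 85.2 CPM in tumours and 34.8 to 41.7 CPM in epithelium, with a tumour median of 10.1 CPM, Acta1 averaging 4.78 CPM in tumours and 1.01 CPM in epithelium and Des 5.69 CPM in tumours and 32.8 CPM in epithelium), and of 6 nerve and glia markers 2 were lower (39 to 419 CPM in tumours and 256 to 319 CPM in epithelium). Of 5 tested cartilage and bone markers 2 were higher (57.3 to 638 CPM in tumours and 29.2 to 38.8 CPM in epithelium, with Acan averaging 9.54 CPM in tumours and 0.0684 CPM in epithelium), and of 7 tested hair and squamous markers 0 were called (2.76 to 121 CPM in tumours and 3.75 to 10.5 CPM in epithelium, with Krt10 averaging 3.52 CPM in tumours and 0.64 CPM in epithelium).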

How the data were processed

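RNA-seq counts per gene were analysed for 9 tumours and 3 epithelium libraries. The deposited values are raw read counts per gene that the authors made with HTSeq 0.11.0 from stranded TruSeq libraries of total RNA. FastQC 0.11.8, TopHat2 2.1.1 and build GRCm38 are named in the submitters' processing notes. Neither the gene annotation nor the counting settings were stated in those notes. The counts themselves showed the strand setting: of genes nested in a gene on the same strand 0 of 109 had counts, against 78 of 85 on the opposite strand, so counts were strand-specific and bases shared on 1 strand were dropped. Positions and lengths came from GENCODE M21, which matched 54106 of 54658 gene names. The 5 summary entries of each count file (such as alignments outside genes) stayed out of library sizes and tests.

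The main test was edgeR 4.0.16 (filterByExpr, TMM, robust quasi-likelihood, Benjamini-Hochberg adjustment over 21456 genes, threshold 0.05) in R 4.3.3; DESeq2 1.42.0 and limma 3.58.1 (voom) were alternatives, and the scripts were tested on simulated data. DESeq2 ran at its defaults, which replace counts flagged as outliers in groups as large as the tumours. Standard errors of edgeR were derived from the log2 fold change and the F statistic. Values were summarised in Python 3.11.15. Other scalings, other filters, leaving out each library and a covariate (percent of alignments outside genes) were also tried.

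The members and the gene lists were chosen with earlier results of these data known. Some genes are not reported here by name, and the counts and sums include them. The lowest, median and highest tumour and each epithelium library are given for members called by edgeR and the 3 most abundant per length in epithelium in each cluster, and means for those of at least 1 CPM in either group. Of the cofactor, chromatin and non-coding lists the called genes are named, or the 2 with the most counts if none passed, and of the cell types the marker listed first. Exact binomial intervals are at 95%. Only 3 epithelium libraries limit the precision of every comparison.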

Additional observations from a re-analysis of the deposited data

Results flagged for a closer look

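For 21 of the 39 HOX genes the highest of the 9 tumours stood far from the rest: its gap to the next tumour, as a share of the whole range, was above Dixon's 95% critical value for 9 samples. Where values are normally distributed, a gap past this value at either end happens by chance in about 1 group in 20. At the high end alone it happens less often. Among tested genes, it was so for 15 of 27 members (55.6%), for 28% of all genes and for 29.3% of genes in the members' range of mean tumour level. Of the 16 members that also reached 1 CPM, tumour 21 was that tumour for 11 and tumour 27 for 5. In the Hoxa cluster, tumour 21 stood apart in Hoxa6 (5.42 CPM, next 1.52), Hoxa9 (9.56 CPM, next 1.21), Hoxa10 (16.9 CPM, next 1.31) and Hoxa13 (3.4 CPM, next 0.109). In the Hoxb cluster it did so in Hoxb7 (3.27 CPM, next 1.92). In the Hoxc cluster it did so in Hoxc4 (4.68 CPM, next 1.03), Hoxc5 (6.67 CPM, next 1.2), Hoxc6 (8.7 CPM, next 2.23), Hoxc8 (8.98 CPM, next 1.74), Hoxc9 (3.02 CPM, next 1.61) and Hoxc10 (7.12 CPM, next 1.36). Tumour 27 stood apart in Hoxb2 (9.75 CPM, next 3.73), Hoxb3 (10.1 CPM, next 4.89) and Hoxb4 (6.05 CPM, next 3.4) and in Hoxd10 (3.44 CPM, next 1.75) and Hoxd13 (1.96 CPM, next 0.422). Of these genes, Hoxa13 and Hoxd13 had 0 counts in epithelium. The genes of a cluster are neighbours measured in the same libraries, so these are not independent events. The other 5 members stayed under 1 CPM in every tumour: Hoxa11 (tumour 21, 0.124 CPM, next 0.0332), Hoxb8 (tumour 1, 0.996 CPM, next 0.414), Hoxc11 (tumour 21, 0.952 CPM, next 0.266), Hoxd11 (tumour 24, 0.192 CPM, next 0.0828) and Hoxd12 (tumour 21, 0.0414 CPM, next 0). Hoxd12 rests on 1 count, Hoxa11 on 4 and Hoxd11 on 10 over all tumours. No tumour stood apart at the low end for any of the 39.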

How the results depend on the processing

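The cause of each change below was not tested. No HOX gene was called higher in tumours under any setting tried, and the count called lower was 1 in edgeR, 3 in DESeq2, 11 in limma-voom and 0 when the percent of alignments outside genes was a covariate. All genes called higher numbered 1908 in edgeR, 3771 in DESeq2, 4994 in limma-voom and 202 with the covariate, and all genes called lower 2438 in edgeR, 5622 in limma-voom and 456 with the covariate. Cofactors called higher numbered 1, but 0 under upper quartile scaling, without a filter, with at least 10 counts in 9 libraries or with the covariate, and cofactors called lower 0, but 1 in DESeq2 and 6 in limma-voom. Chromatin regulators called higher numbered 4, but 1 under upper quartile scaling, 1 without a filter, 2 with 10 counts in 9 libraries, 9 in limma-voom and 1 with the covariate, and those called lower 3, but 5 in limma-voom and 0 with the covariate. Of the non-coding genes, DESeq2 and limma-voom each called 1 higher and 1 lower. Members of at least 1 CPM per kb numbered 2 in tumours and 6 in epithelium. They numbered 3 and 7 when bases shared on the same strand were left out of the length, and 4 and 9 when those shared on either strand were. As medians of the libraries, a summary chosen after seeing the data, the log2 ratios of the cluster sums were -0.97, -1.17, -1.17 and -1.89 for Hoxa, Hoxb, Hoxc and Hoxd.

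With the covariate, the log2 fold change turned positive for Hoxa5 1.77, Hoxa7 0.76, Hoxb2 1.45, Hoxb3 1.09, Hoxb4 0.24, Hoxb6 0.97, Hoxc4 1.54, Hoxc5 2.63, Hoxc6 0.74, Hoxc8 1.11, Hoxc9 0.85, Hoxd4 0.10 and Hoxd10 0.86. In limma-voom it turned negative for Hoxa2 -0.46, Hoxa4 -0.56, Hoxa6 -0.81, Hoxa9 -0.93, Hoxa10 -0.43, Hoxb5 -0.26 and Hoxc10 -0.91, in DESeq2 for Hoxa9 -1.18 and Hoxa10 -0.78, under upper quartile scaling for Hoxa9 -0.016 and with 10 counts in 9 libraries for Hoxa9 -0.015, near 0 in both cases. Without tumour 21, edgeR gave -1.24 for Hoxa9 and -0.83 for Hoxa10, near the DESeq2 values, and DESeq2 replaces counts it flags as outliers. Of 318 values of single genes under another setting with no library left out, 250 kept both direction and call.

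Leaving out 1 library at a time gave 0 to 3 HOX genes called lower, 506 to 2486 genes of all called higher and 1496 to 2753 lower, 0 to 1 cofactors higher, 0 to 4 chromatin regulators higher and 2 to 3 lower, 0 to 1 non-coding genes higher and 0 to 1 lower, and 1 to 2 members of at least 1 CPM per kb in tumours. The low counts over all genes, 506 to 548 higher and 1496 to 1542 lower, came without an epithelium library. The log2 ratio of cluster sums ran -0.21 to 0.59 for Hoxa, -0.86 to -0.44 for Hoxb, -1.17 to -0.21 for Hoxc and -1.43 to -0.89 for Hoxd. The log2 fold change changed sign for some left-out library for Hoxa4 -0.33 to 0.44, Hoxa5 -0.66 to 0.0025, Hoxa6 -0.61 to 0.62, Hoxa9 -1.24 to 0.25, Hoxa10 -0.83 to 1.23, Hoxb3 -0.59 to 0.018, Hoxb5 -0.22 to 0.29 and Hoxc10 -0.85 to 0.32, and kept its sign for the other 33 single genes followed. No paired analysis was possible because the groups share only 1 replicate number, which does not mark a shared mouse or batch. With 3 epithelium libraries, levels of a few CPM and standard errors up to 1.42, a missed threshold does not show that a member was at the same level in both groups.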
